A study of Mus musculus with 12 samples.

Results

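CD4+ T cells sorted from γδTCR-/- mice, which lack T cells with a γδ receptor (called knockout below), were compared with CD4+ T cells from wild-type C57BL/6 mice, both on a control diet. Each side had 2 libraries, so 4 of the 12 libraries of the series were compared, and every gene of the count table was considered. The other 8 libraries held CD4+ T cells of both genotypes after a diet deficient in methionine and choline (MCD), a standard way to bring about steatohepatitis in mice, and wild-type γδ T cells under each diet. All mice entered the study at 7 weeks of age and ate their diet for 6 weeks, and cells were sorted by flow cytometry straight into lysis buffer. The comparison asks how CD4+ T cells differ when γδ T cells are absent and no steatohepatitis diet is given. The labels name no tissue, do not say which gene carries the knockout, and do not say whether the replicates are separate mice or pools. Every p-value therefore measures only the spread between these samples, which may be technical.

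CD4+ T cells recognise peptides on MHC class II through an αβ T cell receptor and help other immune cells. Naive and central memory cells circulate through lymphoid organs and rely on transcription factors such as TCF-1, while effector cells and cells resident in tissue switch on adhesion molecules, chemokine receptors, cytokines and, in part, receptors first described on natural killer (NK) cells. γδ T cells are a separate lineage, fast producers of cytokines in barrier tissues and liver.

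The labelled cell type was checked against its markers. Cd4 read 953 and 1448 CPM (a gene's counts scaled to a common library total) in the 2 knockout libraries and 632 and 750 CPM in the 2 wild-type libraries. Cd3e, a signalling chain of the receptor complex, read 882 and 1107 CPM against 746 and 741 CPM, and the α-chain constant gene Trac 543 and 655 CPM against 444 and 434 CPM. In the γδ libraries of the series Cd4 read 0.975 to 4.29 CPM, so all 4 libraries carried the markers of their label. Total counts were 21539431 and 21759167 in knockout and 17988045 and 18410553 in wild type, but counts outside mitochondrial genes were alike, at 10194759 to 10851934. The mitochondrial genome supplied 52.7% and 51.1% of all counts in knockout, 42.2% and 41.1% in wild type and 40.8% to 43.9% in the 4 CD4+ libraries of the MCD diet. Among 10 nuclear-retained and long noncoding RNAs 7 were lower in knockout, with Malat1 at 6776 and 5901 CPM against 7483 and 9706 CPM. Genes with at least 10 counts numbered 12511 and 12100 in knockout and 13152 and 13402 in wild type. The knockout libraries thus stood apart from the other 6 CD4+ libraries in mitochondrial share and in genes detected. Since both libraries of the group did so, this and genotype cannot be told apart, and the part of either measure in the results below was not tested.

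**Figure D1:**
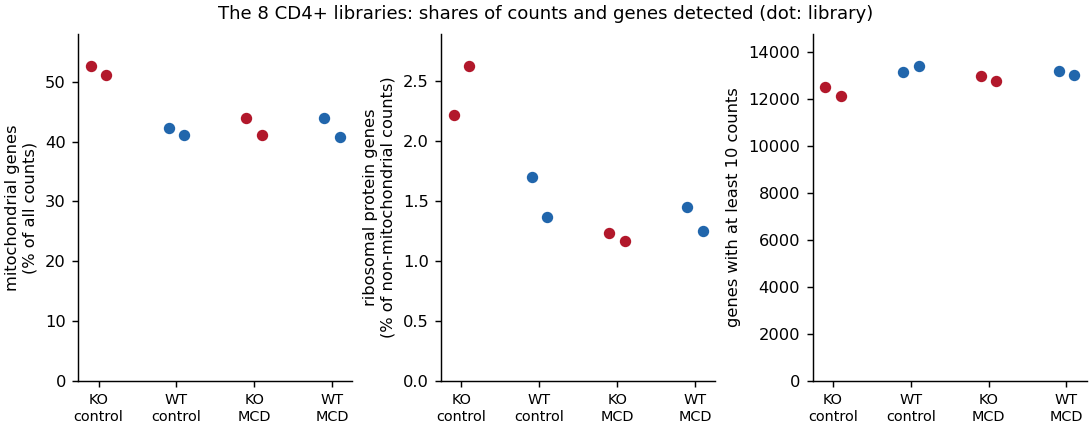
Share of counts on mitochondrial genes (left, % of all counts), on cytosolic ribosomal protein genes (middle, % of non-mitochondrial counts) and number of genes with at least 10 counts (right) in each CD4+ library, with knockout (KO) in red and wild type (WT) in blue. The knockout libraries on the control diet, at 52.7% and 51.1% mitochondrial counts, lie above the other 6 libraries.

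Of 16218 genes tested, 4 passed an adjusted p of 0.05 in edgeR's quasi-likelihood test, 0.0247% of them. The mitochondrial ribosomal RNA mt-Rnr2 was higher in knockout, and Fgl2, Itga1 and Tcrg-C4 were lower. Before adjustment 653 genes had a p under 0.05, of which 200 (1.23%) stood higher and 453 (2.79%) lower in knockout, where 811 would be expected by chance alone. Scaling by library size gave 88 higher and 780 lower genes at that level and moved the median log2 fold change of all genes from -0.03 to -0.38. Of 25883 genes fitted DESeq2 called 160, 41 higher and 119 lower. Of the 160, 71 were at 0 in both libraries of one genotype, and limma-voom called 6 genes. In 1290 genes (7.95%) the knockout libraries were at least 2-fold higher on average without overlap with wild type, and in 2218 (13.7%) at least 2-fold lower. Log2 fold changes below are knockout over wild type, and a gene not named among the 4 did not pass the edgeR test, so its values are given as a description.

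**Figure D2:**
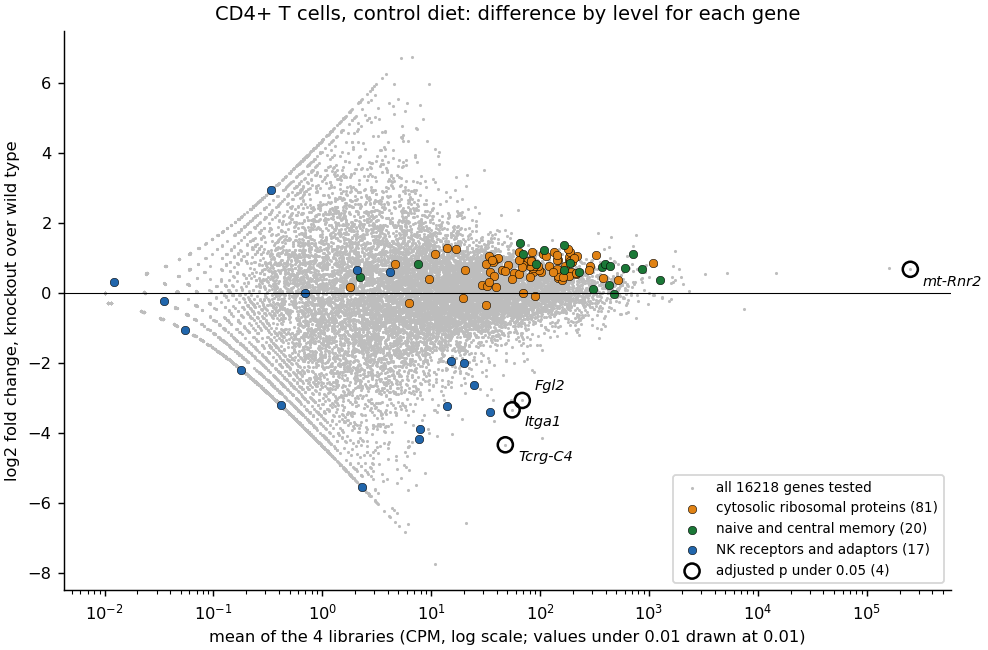
Log2 fold change (knockout over wild type) of each of the 16218 genes tested against its mean level in the 4 libraries (CPM, log axis), with 3 gene lists coloured and the 4 genes past an adjusted p of 0.05 circled. Most ribosomal protein genes (orange) lie above 0, and the NK receptor genes with levels over 5 CPM (blue) lie below.

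Fgl2, a fibrinogen-like protein that is secreted by T cells and dampens immune responses, read 11.8 and 17.3 CPM in knockout and 142 and 103 CPM in wild type. Both knockout libraries were far below both wild-type libraries, 8.42-fold in the mean (log2 fold change -3.07, SE 0.44, adjusted p = 0.0417). Itga1, the α1 chain of a collagen-binding integrin of tissue-resident T cells, read 5.8 and 14 CPM in knockout and 130 and 71.9 CPM in wild type. It was 10.2-fold lower (log2 fold change -3.33, SE 0.5, adjusted p = 0.0458), again with no overlap. Without the first knockout library the adjusted p of both genes was 0.141, so both calls were lost without that library. Fgl2 lies at chr5:21372642-21378374 on the forward strand and Itga1 at chr13:114953096-115101964 on the reverse strand (GRCm38).

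Tcrg-C4, one of the constant genes of the γ chain, read 5.85 and 3.03 CPM in knockout and 79.6 and 103 CPM in wild type, 20.6-fold lower (log2 fold change -4.33, SE 0.54, adjusted p = 0.0117). It lies at chr13:19344558-19352756 on the forward strand. mt-Rnr2, the large ribosomal RNA of the mitochondrion, read 320251 and 298387 CPM in knockout and 199242 and 186588 CPM in wild type, 1.6-fold higher (log2 fold change 0.68, SE 0.08, adjusted p = 0.0117). Scaling by library size reduced the latter difference to a log2 fold change of 0.31 (adjusted p = 0.0282). None of the 4 passed in limma-voom (adjusted p 0.0522 to 0.333). In a fit of the 4 compared libraries alone mt-Rnr2 passed, while Tcrg-C4, Fgl2 and Itga1 had adjusted p-values of 0.104, 0.119 and 0.249. DESeq2 called the 3 genes that were lower and gave mt-Rnr2 an adjusted p of 0.268.

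The RefSeq sequence (GRCm38.p6) of the 250 bases before the start of Fgl2, Itga1, Slamf7, Itgax and Klrk1 is shown to let a reader see the matches of a motif search; these genes were lower in knockout and were picked because their windows hold a match. The letters TGANTCA (AP-1), TGTGGTT (RUNX) and CTTTGA (TCF) were searched on both strands, and matches are in capitals. Each of the 5 windows holds 1 match by that choice. For genes with several entries only the first listed window was read here. The windows so read of Lyst, Chsy1, Pik3ap1, Klrb1c, Klrc1 and Klrc2, also lower in knockout, hold none of the 3 motifs. Nor do those of Tcf7, Ssh2, Add3, Arhgdib, Ripor2, Rpsa, Lars2 and Cx3cr1, higher in knockout. Klrc2, Tcf7 and Ssh2 have 2 entries, and Add3, Arhgdib and Ripor2 have 3, so their other windows are not covered.
Fgl2, chr5:21372423-21372672, forward strand, AP-1: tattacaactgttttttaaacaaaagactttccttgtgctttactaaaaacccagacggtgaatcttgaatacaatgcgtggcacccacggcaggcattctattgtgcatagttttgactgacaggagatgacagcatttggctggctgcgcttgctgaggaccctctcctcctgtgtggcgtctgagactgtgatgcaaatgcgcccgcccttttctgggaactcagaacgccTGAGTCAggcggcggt
Slamf7, chr1:171649000-171649249, reverse strand, AP-1: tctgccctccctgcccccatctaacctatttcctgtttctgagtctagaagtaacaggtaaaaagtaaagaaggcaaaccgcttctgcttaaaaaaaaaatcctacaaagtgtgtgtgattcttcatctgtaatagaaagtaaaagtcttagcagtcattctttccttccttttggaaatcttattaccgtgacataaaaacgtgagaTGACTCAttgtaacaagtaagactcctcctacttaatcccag
Itgax, chr7:128129300-128129549, forward strand, AP-1: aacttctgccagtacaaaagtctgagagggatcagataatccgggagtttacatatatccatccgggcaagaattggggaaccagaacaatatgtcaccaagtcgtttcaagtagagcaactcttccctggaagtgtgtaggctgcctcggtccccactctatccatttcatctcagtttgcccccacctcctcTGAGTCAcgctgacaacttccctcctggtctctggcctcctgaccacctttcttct
Itga1, chr13:115101965-115102214, reverse strand, TCF: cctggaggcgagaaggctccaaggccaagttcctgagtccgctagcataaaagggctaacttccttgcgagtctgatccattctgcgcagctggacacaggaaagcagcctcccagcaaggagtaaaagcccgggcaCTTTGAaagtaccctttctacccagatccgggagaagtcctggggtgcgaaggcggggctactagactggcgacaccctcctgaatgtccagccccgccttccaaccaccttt
Klrk1, chr6:129623865-129624114, reverse strand, RUNX: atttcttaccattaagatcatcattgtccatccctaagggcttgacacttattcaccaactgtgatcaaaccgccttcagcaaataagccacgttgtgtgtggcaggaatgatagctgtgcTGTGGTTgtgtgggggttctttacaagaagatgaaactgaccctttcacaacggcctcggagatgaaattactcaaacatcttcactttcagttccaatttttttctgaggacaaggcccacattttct
The AP-1 letters begin 16, 42 and 56 bases before the RefSeq start of Fgl2, Slamf7 and Itgax. The gene positions of GENCODE, used elsewhere in the text, can place a start differently. In GENCODE Slamf7 spans chr1:171632403-171653035, so its window lies inside the gene. The end of the Fgl2 window, with its AP-1 letters, lies past the GENCODE start at chr5:21372642. The shares that follow count a gene if any of its windows holds the letters. Among 10157 tested genes with a window, 5.42% held the AP-1 letters, as did 22 of 290 genes (7.59%) that were lower at an unadjusted p under 0.05. The TCF letters stand in 13.1% of the tested genes with a window and in 3 of 16 (18.8%) naive and central memory genes. The RUNX letters stand in 4.27% of the tested genes with a window and in 4 of 14 (28.6%) NK receptor genes. These 4 are Klre1, Klrk1, Ncr1 and Klra1, of which Ncr1 was not lower in knockout (below). Other sets were counted too. Among genes lower at an unadjusted p under 0.05 in edgeR the RUNX letters stood in 3.79% and the TCF letters in 16.6%. The TCF letters also stood in 15.3% of genes higher at that level and in 3 of 17 (17.6%) effector memory genes. The AP-1 letters stood in 0 of 14 NK receptor genes and in 3 of 17 (17.6%) effector memory genes. A match is a description of the letters and no evidence of binding.

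The next genes by p-value that were lower in knockout included several of effector and innate-like cells. Slamf7, a receptor of NK and activated T cells, read 17.2 and 43.7 CPM in knockout and 124 and 156 CPM in wild type, 4.59-fold lower (adjusted p = 0.235). Lyst, which shapes lysosomes and cytotoxic granules, read 245 and 164 CPM against 512 and 483 CPM (2.43-fold, adjusted p = 0.365). In both genes the 2 genotypes did not overlap. Chsy1, a chondroitin synthase, read 26 and 35.3 CPM against 153 and 140 CPM (4.78-fold, adjusted p = 0.196). Itgax, the integrin chain known as CD11c, had no counts in either knockout library and read 8.65 and 4.03 CPM in wild type, at least 43.7-fold more than a floor of 3 counts in each knockout library (adjusted p = 0.0788). Cd93, a receptor found on endothelial and myeloid cells, read 0.683 and 0 CPM in knockout and 39.6 and 43.8 CPM in wild type (adjusted p = 0.093). These last 2 genes were near absent from knockout and low to moderate in wild type.

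Several further genes were close to all or none. Pik3ap1, an adaptor of PI3-kinase, had 1 count in each knockout library and 80 and 150 counts in wild type, a ratio of 106 with a 95% counting interval of 29 to 881 (adjusted p = 0.196). Slc27a6, a fatty acid transporter, had no counts in knockout and read 22.5 and 21 CPM in wild type, at least 150-fold more (adjusted p = 0.494). Besides Slc27a6, 3 genes were at 0 in both knockout libraries and over 5 CPM in both wild-type libraries, namely Cmtm3 (6.49 and 5.94 CPM in wild type), Dcst1 (8.33 and 8.11 CPM) and Mrgpre (11.2 and 7.5 CPM). Mgp was the 1 gene with the reverse pattern, at 6 and 8.17 CPM in knockout and 0 in wild type. Cmtm3, Dcst1, Mrgpre and Mgp were chosen after their values were seen.

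**Figure D3:**
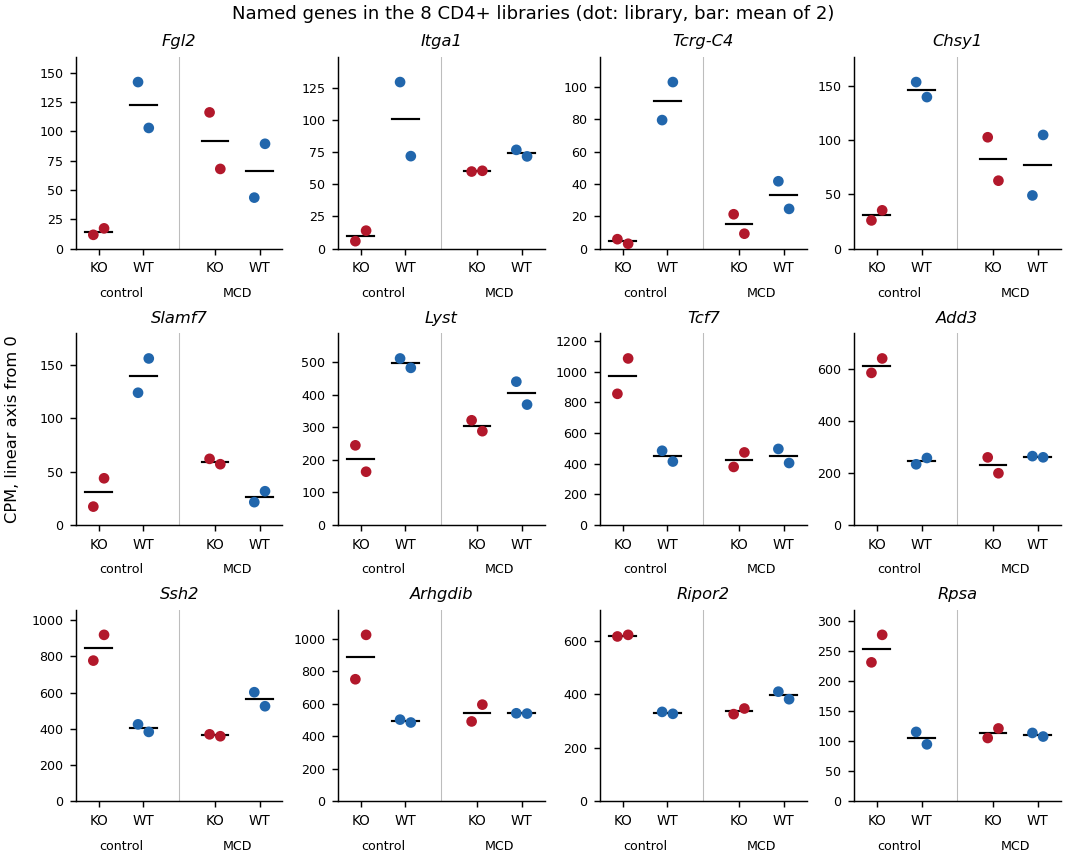
CPM (linear axes from 0) of 12 named genes in the 8 CD4+ libraries, by genotype and diet; each dot is 1 library and each bar the mean of 2. Knockout is red and wild type blue; in the first 6 genes the knockout libraries on the control diet lie lowest of the 4 control libraries, and in the last 6 genes they lie above the other 6 libraries.

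The γ-chain and δ-chain genes were described next, since the knockout concerns their receptor. Trdc, the δ-chain constant gene, read 538 to 733 CPM in the γδ libraries of the series but 0.828 and 2.69 CPM in wild-type and 3.22 and 7.93 CPM in knockout CD4+ T cells. At this level Trdc gives no check of the genotype, and it was not lower in the knockout libraries. Of other γδ markers Sox13 had no counts in any of the 4 libraries, and Cd163l1 read at most 0.0975 CPM. Blk had a log2 fold change of 2.78, which became -0.28 without the second knockout library. Of the γ-chain constants 3 were lower in knockout. Tcrg-C2 read 1.12 and 10.3 CPM in knockout and 84.3 and 122 CPM in wild type (18.1-fold lower, adjusted p = 0.156), and Tcrg-C1 read 5.85 and 5.1 CPM against 62.1 and 78.8 CPM (12.9-fold lower, adjusted p = 0.773). Variable segments of the γ chain summed to 3 and 0 counts in knockout and 38 and 221 in wild type, while those of the δ chain summed to 82 and 146 counts in knockout and 22 and 8 in wild type. Tcrg-C3 read 0 in both knockout libraries and 0.184 and 0 CPM in wild type. In wild-type CD4+ T cells Tcrg-C1, Tcrg-C2 and Tcrg-C4 thus stood at 62.1 to 122 CPM beside a δ-chain constant of at most 2.69 CPM. The γ constants are near-identical copies between which reads can be split, so the share of each copy is uncertain.

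The α-chain variable segments summed to 2698 and 3325 counts in knockout and 1396 and 1307 in wild type, and 43 and 41 of 128 segments had at least 10 counts in knockout against 27 and 36 in wild type. The joining segments of the α chain summed to 3078 and 2894 counts against 2765 and 2996, so the genotypes overlapped there. Summed β-chain variable segments also overlapped, with 1266 and 2361 counts in knockout and 1504 and 1017 in wild type. Among 20 genes of the receptor complex and its co-receptors 17 were higher and 3 lower in knockout, with a median log2 fold change of 0.26 that became -0.1 when scaled by library size; 0 were 2-fold apart without overlap.

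NK receptors and their adaptors were the list with the lowest median, but not by much. The median log2 fold change was -1.87 for 16 sinusoidal endothelial genes, most of them low, and -1.7 for 3 erythroid genes. Of 17 genes tested, 12 were lower and 5 higher in knockout, and 11 (64.7%) were at least 2-fold lower without overlap, against 13.7% of all genes. None passed in edgeR or limma-voom, and DESeq2 called 4 as lower, beside 119 of all 25883 genes fitted. At an unadjusted p under 0.05 in edgeR 9 (52.9%) were lower, beside 2.79% of all genes, and 0 higher. The median log2 fold change was -1.99, beside -0.03 over all genes, and it was -0.92 without the second wild-type library (replicate 3 in the labels) and -0.62 on log2(FPKM + 1). Klrb1c, the NK1.1 antigen, read 5.75 and 6.2 CPM in knockout and 61.7 and 64.8 CPM in wild type (10.6-fold lower). Klrk1, which encodes the activating receptor NKG2D, read 5.75 and 7.74 CPM against 31.6 and 53.1 CPM (6.27-fold lower). Klrc1, the inhibitory receptor chain NKG2A, read 2.49 and 2.74 CPM against 17.4 and 32.8 CPM, and its activating relative Klrc2 0.78 and 0.673 CPM against 7.55 and 21.9 CPM. In these 4 genes all knockout values lay below all wild-type values, within a narrow range of their own.

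Klrd1, the CD94 chain that pairs with both, read 6.19 and 6.2 CPM in knockout and 9.11 and 38.9 CPM in wild type, so most of its difference came from 1 wild-type library. Klri2, another lectin-like receptor, had no counts in knockout and read 5.52 and 3.64 CPM in wild type, at least 31.5-fold more. Klrb1b, Klra3 and Klra9, also among the 11, read at most 1.56 CPM in any of the 4 libraries. The adaptor genes Tyrobp and Fcer1g, whose proteins signal for NK receptors, were not lower, at 2.39 and 2.79 CPM against 1.7 and 1.47 CPM and at 9.41 and 0.673 CPM against 5.25 and 1.3 CPM. Ncr1, which marks NK cells, read 0.0488 and 0 CPM in knockout and 0 in both wild-type libraries. The smallest unadjusted p among the 17 genes was 0.00018 for Klri2 (adjusted p = 0.235). The genes of this paragraph other than Klrd1 and Klri2 were chosen after their values were seen.

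**Figure D4:**
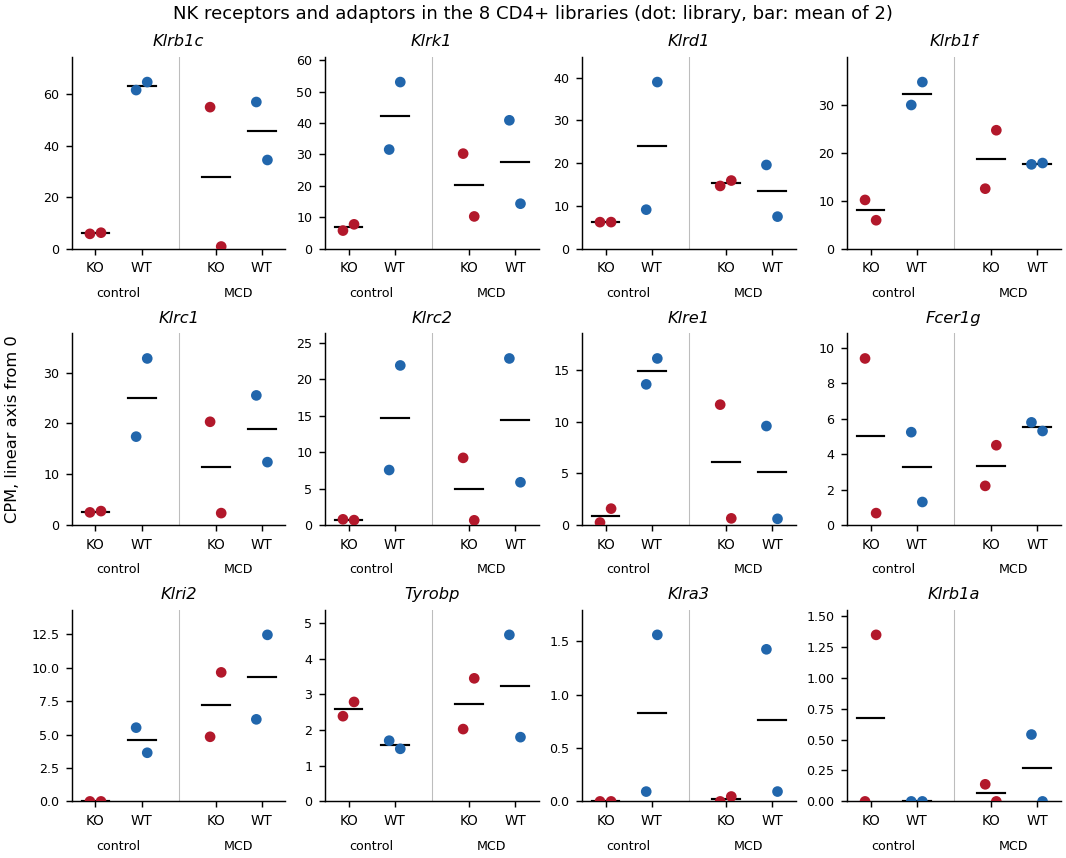
CPM (linear axes from 0) of the 12 NK receptor and adaptor genes with the highest single value in the 4 compared libraries, in the 8 CD4+ libraries; each dot is 1 library and each bar the mean of 2. Knockout is red and wild type blue; Klrb1c, Klrk1, Klrc1 and Klrc2 are low in both knockout libraries on the control diet, and for these 4 genes on the MCD diet the knockout libraries differ between themselves.

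Cells with innate-like properties among CD4+ T cells include invariant NKT cells, and a list of their genes was added after values were seen. Of its 10 tested genes 8 were lower and 2 higher in knockout. The higher ones were β-chain variable segments. Trbv13-2 read 15 and 68 CPM in knockout and 22.4 and 19.7 CPM in wild type, and Trbv1 1.56 and 3.03 CPM against 0.552 and 1.17 CPM. A further β segment of the list, Trbv29, was lower on average, with overlap. At least 2-fold lower without overlap were 5 (50%), beside 13.7% of all genes, and 1 (10%) was higher, beside 7.95%. Klrb1c, Cxcr6 and Il2rb of this list are also described with other lists, so it is not separate from them. Since members were known to be lower when the list was made, its shares are a description only. Zbtb16, the transcription factor PLZF of these cells, read 3.66 and 2.02 CPM in knockout and 36.1 and 35 CPM in wild type (12.5-fold lower, unadjusted p = 0.0805). Traj18, the joining segment of their receptor, read 3.17 and 5.05 CPM in knockout and 9.11 and 4.51 CPM in wild type and thus overlapped. Their variable segments Trav11 and Trav11d had no counts in any of the 4 libraries. Fewer cells of such a type and less RNA per cell cannot be told apart in these sorted bulk samples, and this holds for each list here.

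Genes of type 1 and cytotoxic cells were mostly lower in knockout. Of 25 tested, 20 were lower and 5 higher, 10 (40%) were at least 2-fold lower without overlap (13.7% of all genes) and 1 higher (7.95% of all genes), and the median log2 fold change was -0.81. Without the second knockout library the median was -1.44. Il12rb2, the inducible chain of the IL-12 receptor, read 3.66 and 14.4 CPM in knockout and 50.8 and 71.5 CPM in wild type (6.76-fold lower). Fasl, a death ligand, read 11.8 and 8.37 CPM against 40 and 42.9 CPM (4.1-fold lower), and Il2rb, the β chain shared by the IL-2 and IL-15 receptors, 235 and 243 CPM against 433 and 534 CPM (2.03-fold lower). Id2, a transcriptional regulator of effector and innate-like lymphocytes, read 29.3 and 11.3 CPM against 60.2 and 92.2 CPM (3.75-fold lower). None of the 25 passed in edgeR, limma-voom or DESeq2. At an unadjusted p under 0.05 in edgeR 8 (32%) were lower, beside 2.79% of all genes, and 0 higher. The members were not uniform: Stat4, which transmits the IL-12 signal, read 82.5 and 51.1 CPM in knockout and 74.4 and 88.3 CPM in wild type, and Il18r1 differed by 1.08-fold, both with overlap. Tbx21, the master regulator T-bet, and Ifng, chosen here after their values were seen, read 7.51 and 12.7 CPM against 26.6 and 32.4 CPM and 7.61 and 23 CPM against 55.2 and 18 CPM.

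Of 26 genes of effector memory and tissue residency 19 were lower and 7 higher, with 8 (30.8%) at least 2-fold lower without overlap, beside 13.7% of all genes. Beside Itga1, which passed the test, Cxcr6, a homing receptor of liver-resident T cells, read 41.4 and 17.8 CPM in knockout and 118 and 109 CPM in wild type (3.82-fold lower, adjusted p = 0.658). Rgs1, a brake on chemokine signalling, read 76.9 and 70.5 CPM against 145 and 155 CPM (2.04-fold lower), and Itgal, the αL integrin chain, 308 and 277 CPM against 532 and 430 CPM (1.64-fold lower). These 3 genes did not overlap between genotypes. Itgb1, the β chain that partners Itga1, read 233 and 285 CPM in knockout and 271 and 279 CPM in wild type and overlapped. Itga4 stood slightly higher in knockout, at 665 and 705 CPM against 525 and 624 CPM.

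Genes of naive and central memory cells pointed the other way. Of 20 tested, 19 were higher in knockout, with a median log2 fold change of 0.75, and 5 (25%) were at least 2-fold higher without overlap, against 7.95% of all genes. The median ranged from 0.69 to 0.79 with any of the 4 libraries left out and was 0.38 under library-size scaling. Tcf7, which encodes TCF-1, read 855 and 1086 CPM in knockout and 484 and 414 CPM in wild type (2.16-fold higher, adjusted p = 0.4), and limma-voom and DESeq2 called it. Ccr7, the chemokine receptor for lymph node entry, read 238 and 241 CPM against 91.5 and 93.2 CPM (2.59-fold higher), and S1pr1, which guides exit from lymphoid organs, 257 and 232 CPM against 123 and 148 CPM. All of these were higher in both knockout libraries than in both wild-type libraries. Il7r, the receptor for the survival cytokine IL-7, read 784 and 727 CPM against 413 and 508 CPM (1.64-fold higher), and Foxp1, a factor that maintains quiescence, 454 and 478 CPM against 262 and 297 CPM. The exception was Ms4a6b, named as the 1 member that was not higher, with a log2 fold change of -0.03.

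The genes with the smallest p-values on the higher side, apart from Tcf7, Rpsa and mitochondrial transcripts, were Ssh2, Add3, Lars2, Cx3cr1, Arhgdib and Ripor2. Ssh2, a phosphatase that activates cofilin, read 776 and 918 CPM in knockout and 425 and 383 CPM in wild type (2.1-fold higher, adjusted p = 0.235). Add3, an adducin of the membrane skeleton, read 585 and 640 CPM against 233 and 258 CPM (2.49-fold higher, adjusted p = 0.235). Arhgdib, an inhibitor of small GTPases in blood cells, read 752 and 1025 CPM against 503 and 486 CPM, and Ripor2, which acts in cell polarity and migration, 615 and 621 CPM against 334 and 327 CPM. Both knockout libraries exceeded both wild-type libraries in all 4 genes. Cx3cr1, a chemokine receptor of some effector and myeloid cells, was near 0 in wild type, at 10.7 and 2.88 CPM in knockout and 0.368 and 0 CPM in wild type. Lars2, the mitochondrial leucyl-tRNA synthetase, read 705 and 1343 CPM against 431 and 377 CPM, so the 2 knockout libraries differed by more than the wild-type pair.

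Among 20 other factors of quiescence and T cell maintenance 14 were higher and 6 lower, with Klf3, a repressor of the KLF family, at 809 and 833 CPM in knockout and 487 and 514 CPM in wild type. Gimap4, a GTPase of lymphocyte survival, was lower, at 270 and 266 CPM against 506 and 521 CPM. Members of this list thus differed in direction without overlap between the genotypes.

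Cytosolic ribosomal protein genes were higher in knockout almost throughout. Of 81 tested, 77 were higher and 4 lower, 15 (18.5%) were at least 2-fold higher without overlap, beside 7.95% of all genes, and none lower, and the median log2 fold change was 0.77. None passed in edgeR, and 17 were higher at an unadjusted p under 0.05 (1.23% of all genes). DESeq2 called 1 as higher, beside 41 of all 25883 genes fitted, and limma-voom called 0. The summed level was 11042 and 13459 CPM in knockout and 8128 and 6418 CPM in wild type. As a share of non-mitochondrial counts this was 2.22% and 2.63% against 1.7% and 1.36%, with no overlap. Rpsa read 231 and 277 CPM in knockout and 116 and 94.9 CPM in wild type (2.41-fold higher), Rpl4 1305 and 1531 CPM against 834 and 715 CPM (1.83-fold higher), and Rpl31 229 and 293 CPM against 125 and 107 CPM (2.25-fold higher). At the other end Rps3 read 639 and 543 CPM against 533 and 374 CPM, and Rpl34, Rpl24, Rpl13a and Rps13 were the 4 with log2 fold changes below 0, at -0.33 to -0.09, named after their values were seen. The median stayed between 0.56 and 0.97 with any of the 4 libraries left out. Ribosomal protein genes have many processed copies in the genome, so counts of single members are uncertain.

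Other parts of the translation machinery are given beside them, and the difference between lists was not tested. Of 34 translation factors 22 were higher, with a median log2 fold change of 0.11, and the list summed to 10084 and 10936 CPM in knockout and 8803 and 7772 CPM in wild type, without overlap. Of 21 ribosome biogenesis genes 9 were higher, with a median of -0.01. Of 37 mitochondrial ribosomal proteins 24 were lower, with a median of -0.34, which ranged from -0.7 to -0.08 when the second knockout library or the second wild-type library was left out.

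Transcripts of the mitochondrial genome were mostly higher along with mt-Rnr2 (chrM:1094-2675), the only one of them past the test. The small ribosomal RNA mt-Rnr1 read 197557 and 202680 CPM in knockout and 128018 and 117279 CPM in wild type (1.63-fold higher, adjusted p = 0.0788). Of the 13 messenger RNAs 11 were higher, with a median log2 fold change of 0.59 that was 0.22 under library-size scaling. At an unadjusted p under 0.05 in edgeR 5 (38.5%) were higher, beside 1.23% of all genes, and 0 lower. mt-Co1, a subunit of cytochrome c oxidase, read 18894 and 16441 CPM in knockout and 11765 and 11786 CPM in wild type (1.5-fold higher, adjusted p = 0.349). mt-Nd6, the subunit of complex I encoded on the opposite strand to most, read 632 and 645 CPM against 326 and 357 CPM (1.87-fold higher). The nuclear genes for the same complexes were spread on both sides of 0, with 41 of 68 higher and a median of 0.11. Without mitochondrial genes in the fit, Fgl2, Itga1 and Tcrg-C4 still passed, with adjusted p-values of 0.0449, 0.0452 and 0.0207.

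Genes induced by T cell receptor signals were lower as a list, but the direction rested on 1 library. Of 28 tested, 22 were lower and 6 higher, and the median log2 fold change of -0.51 became 0.09 without the first wild-type library (replicate 2 in the labels). Bhlhe40, a factor of cytokine production, read 19.3 and 25.7 CPM in knockout and 85.6 and 63.1 CPM in wild type (3.31-fold lower, adjusted p = 0.762), and Egr3 8.04 and 4.62 CPM against 35.4 and 24.8 CPM (4.76-fold lower). These 2 genes were low in both knockout libraries. Cd69, an early activation marker, read 165 and 160 CPM against 214 and 125 CPM, and Dusp1, an immediate early phosphatase, 211 and 155 CPM against 300 and 146 CPM, so both overlapped and the first wild-type library was the highest. The 21 NF-kB genes had 14 lower and a median of -0.43, with 0 at least 2-fold apart without overlap.

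Further lists of T cell states held members in both directions, with more lower than higher in knockout. At least 2-fold lower without overlap were 5 (22.7%) regulatory, 2 (12.5%) type 17 and 5 (35.7%) checkpoint genes, beside 13.7% of all genes. At least 2-fold higher were 1 (4.55%), 1 (6.25%) and 0, beside 7.95%. Of 22 regulatory T cell genes 14 were lower and 8 higher; Il2ra, the α chain of the IL-2 receptor, read 34.3 and 36.7 CPM in knockout and 114 and 83.6 CPM in wild type (2.78-fold lower), while Ctla4 overlapped at 74.3 and 78.9 CPM against 60.3 and 100 CPM. Foxp3, the defining factor of these cells and named after its values were seen, read 52.5 and 66.5 CPM in knockout and 43 and 36.3 CPM in wild type, so it was not lower. Of 16 type 17 genes 11 were lower, among them Rora at 89.9 and 62.5 CPM against 150 and 168 CPM and Maf at 43.9 and 36.7 CPM against 77.8 and 78.2 CPM. Il6st, the signalling chain of the IL-6 receptor, was higher at 403 and 520 CPM against 259 and 236 CPM. Of 14 checkpoint genes 10 were lower, with Cd160 at 8.78 and 11.7 CPM against 43.1 and 25.9 CPM; the list's median of -0.29 was 0.07 without the first and -1.65 without the second knockout library.

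The 14 chemokines in the count table summed to 36.2 and 48.8 CPM in knockout and 58.7 and 73.3 CPM in wild type. Of the 11 tested, 10 were lower in knockout and 4 (36.4%) at least 2-fold lower without overlap, beside 13.7% of all genes. Xcl1, a chemokine for cross-presenting dendritic cells, read 3.36 and 0.0481 CPM in knockout and 18.4 and 10.9 CPM in wild type (8.58-fold lower). Ccl5 was the most abundant and overlapped, at 25.5 and 31.9 CPM against 27.6 and 31.4 CPM. Of 22 cytokines 15 were lower and 6 higher; Il4 read 0.0975 and 0.288 CPM in knockout and 9.11 and 9.93 CPM in wild type (49.3-fold lower, unadjusted p = 0.0225). Il21 had no counts in knockout and read 0.92 and 1.47 CPM in wild type, and Tnfsf10, the death ligand TRAIL, read 43.5 and 37.5 CPM against 118 and 75.7 CPM (2.39-fold lower). Among 18 chemokine and migration receptors 5 were at least 2-fold higher (7.95% of all genes) and 6 at least 2-fold lower without overlap (13.7%). The higher side held Ccr7, and the lower side held Cxcr6 and Ccr9, a gut homing receptor that read 19.3 and 9.86 CPM in knockout and 53.6 and 68.3 CPM in wild type (4.18-fold lower).

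Of 35 interferon-induced genes 21 were lower, with a median of -0.13, and of 32 proliferation genes 19 were higher, with a median of 0.08. Of 25 cytokine receptors 13 were lower, 7 (28%) of them at least 2-fold without overlap, Il2rb, Il12rb2 and Il2ra among them, beside 13.7% of all genes. Of 9 type 2 genes 5 were lower and 4 higher, with 3 (33.3%) at least 2-fold lower without overlap, beside 13.7% of all genes. Of 12 follicular helper genes 7 and of 15 heat shock genes 8 were lower, while of 16 glycolysis genes 11 were higher. Mki67, which marks dividing cells, read 116 and 200 CPM in knockout and 153 and 208 CPM in wild type and overlapped. Tk1, a nucleotide kinase of S phase, was the member with the smallest p-value, at 0.683 and 1.92 CPM against 18.5 and 12.9 CPM.

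**Figure D5:**
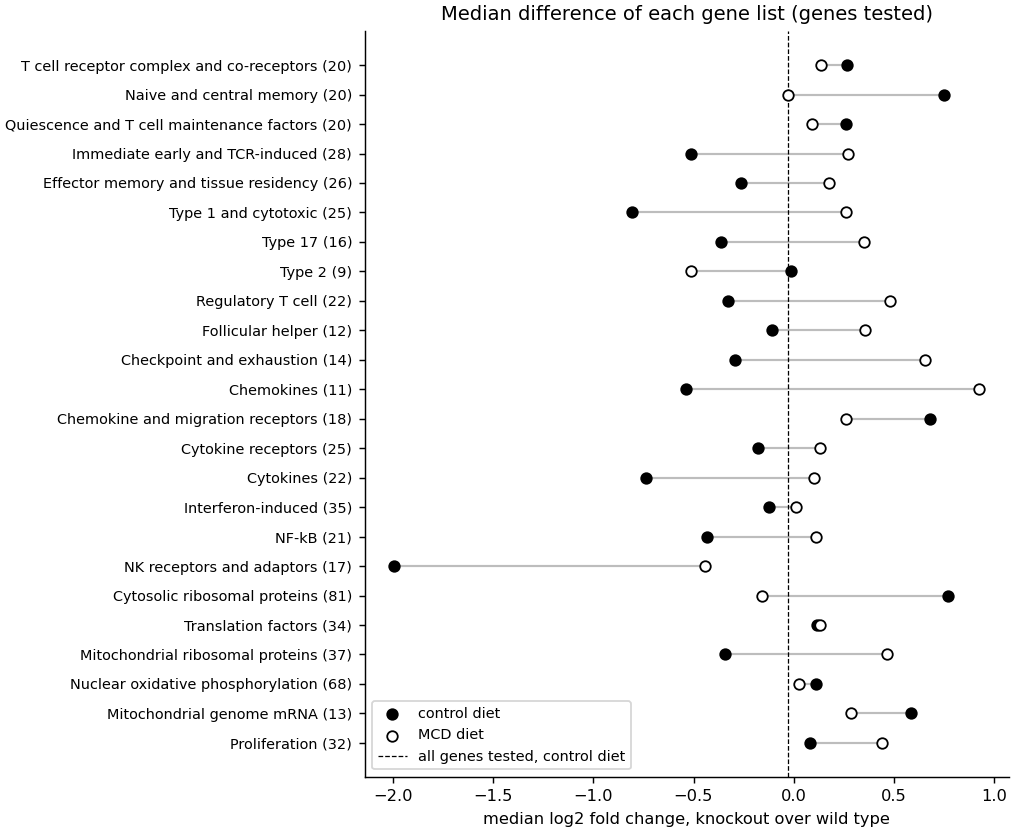
Median log2 fold change (knockout over wild type) of the tested genes of 24 lists on T cell states, signals, translation, mitochondria and proliferation, with the number of genes in brackets, on the control diet (filled) and the MCD diet (open); the dashed line is the median of all genes on the control diet. Of the 24, NK receptors and adaptors lie lowest at -1.99 and cytosolic ribosomal proteins highest at 0.77 on the control diet; lists of other cell types are not drawn.

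Markers of other cell types were measured in the same libraries. Of 16 sinusoidal endothelial genes tested 14 were lower in knockout, 8 (50%) at least 2-fold without overlap beside 13.7% of all genes, and the list summed to 159 and 162 CPM in knockout and 131 and 177 CPM in wild type. Its defining genes Kdr, Stab2, Clec4g and Oit3 read 0 to 1.17 CPM in knockout and 0.276 to 4.51 CPM in wild type. Of 17 macrophage genes tested 10 were lower and 6 higher, with list sums of 32 to 57.4 CPM in knockout and 69.3 to 81.6 CPM in wild type. Their log2 fold changes ran from -5.49 to 3.5. Mrc1 read 0.439 and 0 CPM against 8.05 and 20.5 CPM, while the marker Csf1r had a log2 fold change of 0.07. Of 14 B and plasma cell genes 12 were higher, with sums of 577 and 690 CPM against 304 and 380 CPM, most of it Ighm at 476 and 576 CPM against 242 and 309 CPM. The B cell genes Ms4a1, Cd79a and Cd79b read 0 to 7.22 CPM. Of 12 neutrophil and monocyte genes 6 were lower and 2 higher, with sums of 20.3 and 20.8 CPM against 81.7 and 83.1 CPM, and S100a8 and S100a9 had no counts in any of the 4 libraries. Alb, the hepatocyte product albumin, read 23.5 and 27 CPM against 21.3 and 12.9 CPM, and the CD8 genes went opposite ways, Cd8a at 0.0488 and 2.07 CPM against 3.18 and 5.42 CPM and Cd8b1 at 3.75 and 6.83 CPM against 1.43 and 2.12 CPM. Summed levels of macrophage, neutrophil and B cell lists did not overlap between genotypes while those of the endothelial list did, and their part in the results was not tested.

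The same 2 genotypes on the MCD diet share no library with this comparison and were set beside it. There edgeR called 0 genes (337 at an unadjusted p under 0.05), limma-voom 0 and DESeq2 49. The difference between the genotype effects of the 2 diets passed for 0 genes in edgeR (703 at an unadjusted p under 0.05, lowest adjusted p = 0.299), for 1 in limma-voom and for 90 in DESeq2, so no gene is called particular to the control diet. Fgl2 read 116 and 68 CPM in knockout and 43.5 and 89.5 CPM in wild type on the MCD diet, and Itga1 59.9 and 60.5 CPM against 76.8 and 71.7 CPM. Slamf7 was higher in knockout there, at 61.9 and 56.9 CPM against 21.4 and 31.6 CPM. For these 3 genes the edgeR interaction had unadjusted p-values of 3.84e-05, 0.00041 and 7.67e-05 (adjusted p = 0.299, 0.554 and 0.299). The genes were named by their p-values in the control-diet contrast, which is part of the interaction. That choice favours a low interaction p, so these values are no separate evidence of a difference between diets. Tcf7 read 379 and 473 CPM in knockout and 496 and 404 CPM in wild type, and Add3 260 and 199 CPM against 265 and 260 CPM. All MCD values of Tcf7 and Add3 lay below both knockout values on the control diet.

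The list medians on the MCD diet were closer to 0 for the NK receptor, naive and ribosomal protein lists, and these differences between diets were not tested. The median log2 fold change of NK receptors was -0.44 and Klrb1c was at 55.1 and 0.828 CPM in the 2 knockout libraries, so these differed more than the genotypes did. Naive and central memory genes had a median of -0.03, with 8 of 20 higher. Cytosolic ribosomal proteins had a median of -0.16, with 21 of 81 higher, and summed to 5800 and 5923 CPM in knockout and 5836 and 6817 CPM in wild type. Of the 4 genes past the test, Tcrg-C4 and, with a smaller difference, Itga1 (above) were lower in knockout without overlap on both diets. On the MCD diet Tcrg-C4 read 21.3 and 9.25 CPM in knockout and 41.7 and 24.6 CPM in wild type. Tcrg-C2, Lyst, Itgax and Slc27a6, named above by p-value, were also lower without overlap on both diets.

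Genes near the δ-chain locus were examined because the label of the knockout names this receptor. Within 5 Mb on either side of Trdc on chromosome 14, leaving out receptor segments, 110 genes were tested, of which 40 were higher and 70 lower in knockout. None passed in edgeR (lowest adjusted p = 0.658), and 5 had an unadjusted p under 0.05. At that level 1.23% of all genes were higher and 2.79% lower. At least 2-fold without overlap were 12 higher and 12 lower genes of the 110, beside 7.95% and 13.7% of all genes, and the median log2 fold change was -0.28.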

How the data were processed

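RNA of sorted cells was sequenced in 12 libraries, 2 in each of 6 groups taken from the labels. The authors deposited raw counts per gene and FPKM values. Per the submitters' processing notes, bcl2fastq, STAR, featureCounts and DESeq2 were used with mm10 (GRCm38); versions and the strand used in counting are not given in the sources used here. The count table held 52459 genes. The deposited FPKM values, whose library scaling followed size factors and not totals, were used only as an alternative.

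All 12 libraries were fitted together in edgeR 4.0.16 under R 4.3.3 (filterByExpr with a minimum count of 10 and total of 15, TMM, quasi-likelihood test, 2-sided, prior count of 2, Benjamini-Hochberg over 16218 genes, threshold 0.05). CPM values used TMM-scaled totals, and folds are ratios of mean CPM. SEs were derived from the test: the absolute log2 fold change without the prior count, divided by the square root of its F statistic. For a group at 0 the fold was computed against a floor of 3 counts in each library (0.13 to 0.146 CPM) and is a bound; ratios to 1 to 3 counts carry an exact 95% interval. Both cover counting error only. Replicates differed by far more than sampling noise. Groups had 2 libraries, so SDs were not printed; each library's value was.

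Up to 12 genes per direction were named: those past the threshold without overlap and with at least 5 CPM in the higher group, then those with the smallest p-values, leaving out receptor segments, unnamed transcripts and pseudogenes. From each of 45 gene lists the 4 most abundant members and the 4 with the smallest p-values could be named too. Members and lists were chosen with earlier results of these data known, and lists are described by counts and medians with no set test. Summed levels of a list cover all its members in the count table, also those not tested. Gene positions came from GENCODE vM21. Alternatives were RLE and library-size scaling, other filters, limma 3.58.1 (voom, or log2 FPKM with a pseudocount of 1 or 0.1), DESeq2 1.42.0, robust spread, subsets of libraries or genes, thinning to equal totals and leaving out each library. The test was run on simulated data first. Values of a few genes are not reported here.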

Additional observations from a re-analysis of the deposited data

How the results depend on the processing

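The number of genes called for genotype on the control diet was 4. It was 52 with no filter, 160 in DESeq2, 2 in a fit of the 4 compared libraries, and 2 with limma on log2(FPKM + 1); with 1 of the 12 libraries left out it ran from 7 to 27 (7 to 9 for the 4 compared), where the filter admitted more genes (18496 to 18692). The number called for the difference between diets was 0. It was 44 with no filter, 90 in DESeq2, 1 in limma-voom, 1 with only CD4+ libraries, and 0 to 21 with 1 library left out. Among the fits with 1 library left out, the highest counts for genotype came without 1 of the γδ libraries of the MCD diet. These libraries are no part of the comparison, and the cause was not tested. The adjusted p over all alternatives ran from 7.96e-100 to 0.74 for mt-Rnr2, 5.17e-19 to 0.333 for Tcrg-C4, 2.91e-08 to 0.251 for Fgl2 and 6.92e-09 to 0.326 for Itga1, and none of the 4 changed sign. The other settings kept the count within 1.5 times; limma-voom called 6 genes, none of them among the 4. No paired analysis was possible because the 2 groups share only replicate number 2. With 2 libraries a side, low genes carry little weight: differences under 3 counts per library were not detectable.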
